A study of Mus musculus with 20 samples.

Results

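The transcripts described here encode 10 interferon-γ inducible GTPases of the mouse: the guanylate-binding proteins Gbp2, Gbp3, Gbp4, Gbp5, Gbp7 and Gbp11, and the immunity-related GTPases Igtp, Irgm1, Irgm2 and Iigp1. They were chosen by name, with earlier results of these data known, as the rows of the count table whose Ensembl identifiers carry these symbols. They make up 10 of the 49315 gene identifiers counted. All 10 were detected in every library and passed the filter on low counts. The RNA came from splenic T effector cells sorted as CD4+CD25-, to a purity above 99% per the labels. In the CKO mice (Fl-Pcbp2/CD4cre) a floxed Pcbp2 gene, which encodes an RNA-binding protein, is removed by Cre under Cd4 control, a promoter active in developing T cells. The CTL littermates (Fl-Pcbp2) carry the floxed gene without Cre. Cells were frozen after 6 h with CD3/CD28 beads, which engage the antigen receptor complex and a costimulatory receptor, or at once (0 h). There were 3 CKO and 5 CTL libraries at 6 h, and 6 CKO and 6 CTL libraries at 0 h. The labels give no age, and do not say whether a library came from 1 mouse, so the p-values measure the spread between these libraries, which may be partly technical.

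Interferon-γ is a cytokine of activated T and natural killer cells. It binds a receptor made of Ifngr1 and Ifngr2, the kinases Jak1 and Jak2 pass the signal on, and it reaches GAS elements in the genome. Irf1, which interferon-γ induces, is a transcription factor that acts at interferon-stimulated response elements (ISRE). The guanylate-binding proteins belong to the dynamin superfamily and assemble on membranes of pathogens and of the vacuoles that hold them. The immunity-related GTPases divide into effectors such as Iigp1, which coat such vacuoles, and the regulators Igtp, Irgm1 and Irgm2, which sit on the cell's own membranes and keep the effectors inactive there. These proteins are best known from macrophages and fibroblasts, and the loss of Irgm1 in mice also impairs the survival of activated T cells.

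Of the 10 genes, 9 lie in gene clusters on 3 chromosomes of the GRCm38 genome (GENCODE M21). Gbp5, Gbp7, Gbp3 and Gbp2 follow each other on chromosome 3, between bases 142493978 and 142638008. Gbp4 (105115767 to 105139586) and Gbp11 (105323042 to 105346472) lie on chromosome 5, and Igtp (58199556 to 58207591), Irgm2 (58199618 to 58222782) and Irgm1 (48861968 to 48871683) on chromosome 11. Gbp11 is annotated as a polymorphic pseudogene and the other 9 as protein coding. Some gene models share exon bases, so that reads there may be counted for neither or either: Irgm2 and Igtp share 162 exon bases, which are 4.4% and 8.0% of their exon length, Gbp7 shares 11.3% of its exon bases with the pseudogene Gm43802, and Gbp4 shares 0.8% with Gbp8. The families are also similar in sequence, and how the counting treated reads that align to several genes is not given in the sources used here.

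Promoter sequence was available for 7 of the 10 genes (RefSeq, GRCm38.p6) and is shown because interferon-γ is known to act through short motifs at the starts of such genes. In each line the capitals mark ISRE letters, the unit GAAA repeated after 2 bases of any kind and read on either strand, or GAS letters, TTCNNNGAA.
Gbp2: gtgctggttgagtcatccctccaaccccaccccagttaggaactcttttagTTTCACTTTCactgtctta
Gbp3: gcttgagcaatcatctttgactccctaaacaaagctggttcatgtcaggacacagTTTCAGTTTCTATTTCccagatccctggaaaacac
Gbp5: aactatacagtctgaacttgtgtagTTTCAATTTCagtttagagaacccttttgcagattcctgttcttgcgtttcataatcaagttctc
Gbp7: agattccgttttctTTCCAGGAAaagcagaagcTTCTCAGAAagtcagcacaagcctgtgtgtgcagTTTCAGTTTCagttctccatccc
Igtp: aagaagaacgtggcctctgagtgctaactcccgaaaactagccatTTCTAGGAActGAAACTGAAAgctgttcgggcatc
Irgm2: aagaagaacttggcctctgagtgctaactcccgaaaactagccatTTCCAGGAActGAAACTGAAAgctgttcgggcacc
Irgm1: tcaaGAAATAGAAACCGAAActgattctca

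All but Irgm1, which is on the minus strand, are read from the plus strand. The stretches are chr3:142620553-142620622 (Gbp2), chr3:142559944-142560033 (Gbp3), chr3:142496744-142496833 (Gbp5), chr3:142530216-142530305 (Gbp7), chr11:58199466-58199545 (Igtp), chr11:58214857-58214936 (Irgm2) and chr11:48871425-48871454 (Irgm1). GENCODE's model of Irgm2 begins further upstream, within Igtp, than the RefSeq start used here. That of Gbp5 also begins further upstream, at base 142493978, so the Gbp5 stretch lies inside that model, outside its exons. The Irgm1 stretch is short because its upstream window lies in an exon of another annotated transcript. GENCODE exons also cover the last 21 bases of the Gbp2 stretch, from 61 bases before the RefSeq start, and so its ISRE letters. They cover the last 8 bases of the Gbp3 stretch, past its ISRE letters. The first ISRE base stood 59 bases before the start of Gbp2, 165 before Gbp5, 53 before Gbp7, 34 before Igtp and 64 before Irgm2. Gbp3 and Irgm1 each had 2 overlapping copies, at 45 and 39 bases before the start of Gbp3 and at 30 and 24 before that of Irgm1. The letters were found in windows of 7 of 7 genes, where a window ran from 250 bases before to 50 after a start, against 3.44% of 32851 such windows of all genes. GAS letters were found in 4 of the 7 (Gbp5, Gbp7, Igtp and Irgm2), against 8.3% of all windows, and the AP-1 letters TGANTCA in 2 (Gbp2 and Irgm1), against 7.81%; no match of 1 motif overlapped that of another in a member. A second RefSeq start of Gbp3 had a window with none of the 3. Igtp and Irgm2 carried the 2 elements side by side, with the GAS letters starting 45 and 75 bases before their starts, and the 2 stretches printed differed at 3 of 80 positions. Of 10 other genes of the families with a window, 6 held ISRE letters and 4 held GAS letters. These matches describe the sequence and do not show binding in these cells.

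All 10 transcripts rose after 6 h with the beads, in CKO and in CTL cells alike. Gbp2 rose most and Irgm2 least in both genotypes. The median of the 10 log2 fold changes was 2.61 in CKO and 2.50 in CTL, beside medians over all 28082 genes tested of 0.12 in CKO and 0.31 in CTL. Together the 10 transcripts took 0.746% to 0.902% of all counts in CKO and 0.737% to 1.07% in CTL at 6 h, against 0.0905% to 0.114% in CKO and 0.101% to 0.122% in CTL at 0 h. By edgeR's quasi-likelihood test with Benjamini-Hochberg adjustment over all genes, 10 of 10 were called higher at 6 h in CKO, where the call was made upward for 19.6% of all genes and downward for 13.1%. Likewise 10 of 10 were called higher in CTL, where it was made upward for 41.6% and downward for 21.7%, so that a call alone sets the members little apart from the other genes in CTL. Among the 14189 genes with a mean of at least 1 CPM (TMM-scaled counts-per-million units), Gbp2 ranked 6th by its rise in CKO and 59th in CTL, and Irgm2, the lowest member, ranked 285th in CKO and 680th in CTL. Levels are relative to the total counts of a library: activation changes the RNA content of T cells, which was not measured, and in bulk RNA more cells with a transcript cannot be told apart from more of it per cell.

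**Figure D1:**
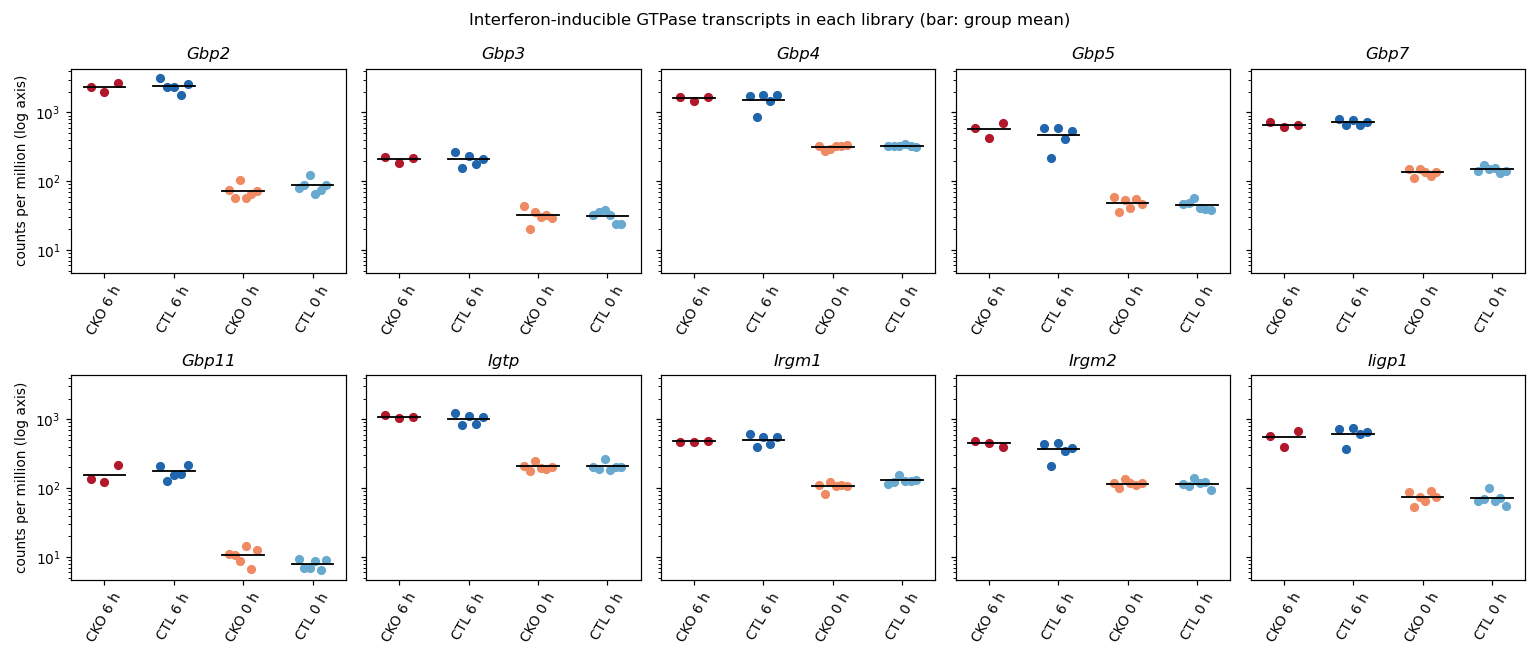
Level in CPM (log axis) of each of the 10 GTPase transcripts, with 1 point per library and a bar at the group mean, for 3 CKO and 5 CTL libraries at 6 h and 6 CKO and 6 CTL libraries at 0 h. For each gene every 6 h library lies above every 0 h library, while the CKO and CTL points of the same time overlap. The share of all genes whose libraries separate or overlap in this way was not computed.

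Gbp2, a prenylated guanylate-binding protein that targets the vacuole of Toxoplasma gondii in mouse cells, had 2007, 2346 and 2667 CPM in the 3 CKO libraries at 6 h and 1799, 2318, 2321, 2577 and 3177 CPM in the 5 CTL libraries at 6 h. At 0 h it had a median of 69.1 CPM (57.0 to 104) in 6 CKO libraries and of 84.2 CPM (66.0 to 123) in 6 CTL libraries. The times were far apart, and the genotypes overlapped at each. The log2 fold change, 6 h over 0 h, was 5.07 ± 0.21 (standard error, SE) in CKO and 4.80 ± 0.20 in CTL, or 33.5-fold and 27.9-fold.

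Gbp5, which in mouse macrophages promotes inflammasome assembly, had 429, 589 and 699.8 CPM in CKO at 6 h and 216, 407, 531, 597 and 602 CPM in CTL at 6 h. At 0 h the medians were 50.3 CPM (35.5 to 59.1) in CKO and 44.0 CPM (38.7 to 56.7) in CTL. A single CTL library, 4.24, held the lowest 6 h value. Gbp5 rose by 3.66 ± 0.22 in CKO and 3.32 ± 0.20 in CTL on the log2 scale.

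Gbp11 had 121, 138 and 214 CPM in CKO and 128, 154, 161, 212 and 219 CPM in CTL at 6 h. It had the lowest CPM of the 10 at 0 h, with a median of 10.9 CPM (6.79 to 14.5) in CKO and 7.87 CPM (6.41 to 9.29) in CTL. Its rise was second to that of Gbp2 in both genotypes, at 3.88 ± 0.22 in CKO and 4.46 ± 0.21 in CTL. The model annotated as a polymorphic pseudogene thus gave 9337 to 14398 counts per CKO library and 4603 to 15560 per CTL library at 6 h.

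Gbp4 had 1467, 1659 and 1674 CPM in CKO at 6 h and 871, 1466, 1705, 1777 and 1807 CPM in CTL at 6 h. Its 0 h levels were the most even of the 10, with a median of 322 CPM (279 to 332) in CKO and 326 CPM (317 to 354) in CTL. The lowest 6 h value was again that of CTL library 4.24. It rose by 2.41 ± 0.16 in CKO and 2.19 ± 0.14 in CTL.

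Gbp7, which in mouse macrophages helps to assemble the NADPH oxidase, and Gbp3 responded less than Gbp2 and Gbp5. Gbp7 had 611, 649.9 and 728 CPM in CKO and 654, 661, 728, 785 and 798 CPM in CTL at 6 h, against medians of 137 CPM in CKO and 146 CPM in CTL at 0 h. Gbp3 had 183, 220.1 and 229 CPM in CKO and 154, 176, 213, 233 and 267 CPM in CTL at 6 h, against 31.2 CPM in CKO and 32.0 CPM in CTL at 0 h. The log2 rise of Gbp7 was 2.30 ± 0.12 in CKO and 2.28 ± 0.11 in CTL, the closest match of the 10, and that of Gbp3 was 2.77 ± 0.20 in CKO and 2.72 ± 0.18 in CTL.

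Among the regulators, Igtp (also named Irgm3) had 1036, 1079 and 1143 CPM in CKO at 6 h and 837, 850.3, 1073, 1129 and 1223 CPM in CTL at 6 h, against medians of 202 CPM at 0 h in either genotype. It was the most abundant member per length at 0 h. Irgm1 had 466, 474 and 492 CPM in CKO and 399, 434, 546, 554 and 606 CPM in CTL at 6 h, against medians of 109.8 CPM (82.6 to 121) in CKO and 127 CPM (117 to 156) in CTL at 0 h. The 3 CKO values at 6 h lay within the CTL range, and at 0 h the highest CKO library exceeded only the lowest CTL library. Irgm2 had 396, 454 and 490.5 CPM in CKO and 208, 353, 387, 435 and 456 CPM in CTL at 6 h, against 118 CPM in CKO and 117 CPM in CTL at 0 h. Its library 4.24 of CTL stood well under the other 4. The log2 rises were 2.45 ± 0.14 in CKO and 2.28 ± 0.12 in CTL for Igtp, 2.19 ± 0.13 in CKO and 1.96 ± 0.12 in CTL for Irgm1, and 2.03 ± 0.16 in CKO and 1.62 ± 0.14 in CTL for Irgm2.

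Iigp1 (Irga6), the effector of the set, lies apart from the others on chromosome 18 (bases 60376027 to 60392634) and had 401, 569 and 667 CPM in CKO at 6 h and 375, 609, 665, 724 and 739 CPM in CTL at 6 h. At 0 h it had a median of 74.8 CPM (53.1 to 91.3) in CKO and 68.3 CPM (54.3 to 101) in CTL. It rose by 2.98 ± 0.18 in CKO and 3.08 ± 0.17 in CTL, values above those of the 3 regulators in both genotypes. The adjusted p-values of the 10 rises lay between 7.58e-12 and 3.6e-08 in CKO and between 2.84e-12 and 4.25e-08 in CTL (edgeR). Where a 6 h and a 0 h library carried the same number in their titles (3 pairs in CKO, 5 in CTL), each member was higher at 6 h in each pair, by 0.96 (Irgm2 in a CTL pair) to 5.29 (Gbp2 in a CTL pair) on the log2 scale. The share of all genes that were higher at 6 h in each pair was not computed, so this result has no background.

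**Figure D2:**
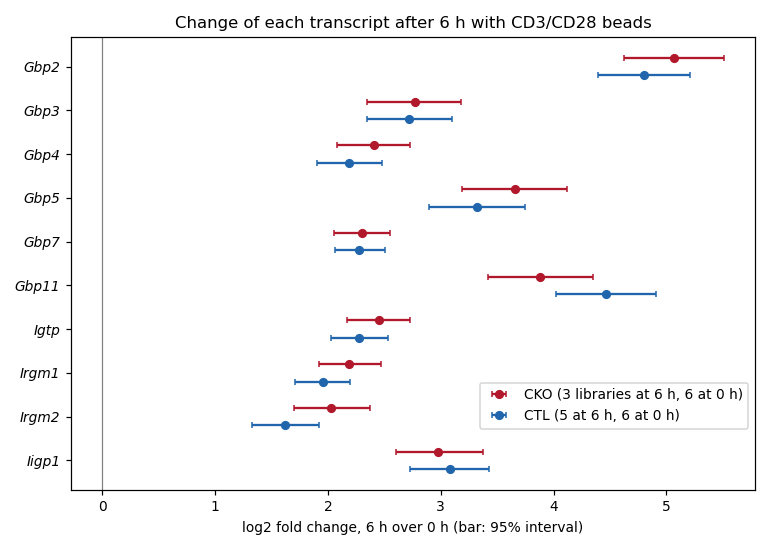
Log2 fold change, 6 h over 0 h, of each transcript (horizontal axis) in CKO (red, upper point of each row) and CTL (blue, lower point), with 95% intervals from edgeR. The 20 values lie between 1.62 and 5.07, and the intervals of the 2 genotypes overlap for each gene.

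Divided by exon length, the order of the levels changed with time. At 6 h Gbp2 stood first, at 930.0 ± 131 CPM per kb in CKO (SD, n = 3) and 969 ± 199 in CTL (n = 5), ahead of Igtp at 537 ± 26.5 in CKO and 506 ± 84.9 in CTL and of Gbp4 at 214 ± 15.4 in CKO and 204 ± 52.0 in CTL. These 3 differed from their neighbours in the order by more than the SD in both genotypes. Below them the order was not settled: the other 7 lay between 58.5 and 121 CPM per kb in CKO and between 63.9 and 129 in CTL, and most neighbours, such as Iigp1, Gbp5 and Irgm1 in CKO, differed by less than their SD. At 0 h Igtp stood first, at 102 ± 12.3 CPM per kb in CKO and 103 ± 14.8 in CTL (n = 6 each), followed by Gbp4 at 41.6 ± 2.8 in CKO and 43.9 ± 1.74 in CTL, and Gbp11 stood last at 4.01 ± 1.02 in CKO and 2.93 ± 0.472 in CTL. The ratio of the highest to the lowest member was 15.9 in CKO and 15.2 in CTL at 6 h, against 25.5 in CKO and 35.1 in CTL at 0 h. Lengths are those of all annotated exons joined; with the longest transcript instead, 4 members moved by more than 1.5 times. Gbp5 at 6 h then had 152 CPM per kb in CKO and 125 in CTL, in place of 86.3 in CKO and 70.9 in CTL. Iigp1 had 175 in CKO and 199 in CTL, Irgm1 125 in CKO and 133 in CTL, and Gbp4 353 in CKO and 336 in CTL. Gbp2, Igtp and Gbp4 still stood first, and the other 7 lay between 58.5 and 175 in CKO and between 64.9 and 199 in CTL.

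The study asked how loss of Pcbp2 changes gene expression in these cells, and no difference between CKO and CTL was called for any of the 10 GTPases. Pcbp2 itself averaged 8.72 ± 2.24 CPM in CKO and 322 ± 34.5 CPM in CTL at 6 h (SD, n = 3 and 5), and 17.0 ± 3.39 CPM in CKO and 333 ± 46.9 CPM in CTL at 0 h (n = 6 each), as the labels require. At 6 h the members' log2 differences, CKO over CTL, lay between -0.23 (Iigp1) and 0.29 (Irgm2), with 5 above and 5 below 0 and a median of -0.04. At 0 h they lay between -0.34 (Gbp2) and 0.42 (Gbp11), with 1 above and 9 below 0 and a median of -0.13. The fit took sex as labelled. At 0 h each CKO library was labelled male, and CTL libraries 4.24, 5.6 and 10.28 were labelled female. Xist and Ddx3y disagreed with the label in CKO libraries 4.24 and 5.6. With no sex term Gbp3, Gbp5 (0.11) and Iigp1 (0.07) lay above 0, so the count of 9 depends on that term. The median over all genes tested was -0.29 at 6 h and 0.05 at 0 h, and that over the genes with a mean of at least 1 CPM was 0.07 at 6 h and -0.01 at 0 h. By edgeR, 0 of 10 were called at 6 h, where 0.292% of all genes were called in either direction, and 0 of 10 at 0 h, where 0.424% were. Without adjustment, 0 of 10 members at 6 h had a p under 0.05, where 12.7% of all genes did, and 1 of 10 at 0 h, where 7.54% did. DESeq2 called 0 members at either time. With backgrounds this low, a count of 0 of 10 lies near the share of all genes.

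The 95% intervals say how large a difference the libraries would still allow. At 6 h they reached from 0.642-fold (Gbp11) to 1.66-fold (Gbp5) over the members, and at 0 h from 0.604-fold (Gbp2) to 1.81-fold (Gbp11). Gbp7 was the tightest at 6 h, at 0.914-fold with an interval of 0.76 to 1.10, and Gbp3 stood at 1.00-fold with an interval of 0.743 to 1.35.

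By edgeR's unadjusted p, Irgm1 and Gbp11 came closest to a difference, both at 0 h. The smallest adjusted p of the genotype comparisons was 0.42, for Irgm2 at 6 h (log2 0.29 ± 0.17). Irgm1 averaged 107 ± 12.8 CPM in CKO and 129.8 ± 13.5 CPM in CTL (SD, n = 6 each). Its log2 difference was -0.33 ± 0.12 (SE), with an unadjusted p of 0.013 and an adjusted p of 0.433 (edgeR). At 6 h the difference was -0.09 ± 0.14. Gbp11 averaged 10.8 ± 2.75 CPM in CKO and 7.9 ± 1.27 CPM in CTL at 0 h, a log2 difference of 0.42 ± 0.21 with an adjusted p of 0.68. At 6 h Gbp11 differed by -0.16 ± 0.23. Neither gene passed the threshold, and the CKO and CTL libraries overlapped at both times for all 10 members. Among the 5 pairs of CKO and CTL libraries at 0 h with the same number, 3 members were lower in CKO in 5 of 5. These were Irgm1 (log2 -0.57 to -0.08), Gbp2 (-0.61 to -0.11) and Gbp4 (-0.20 to -0.01). Gbp11 was higher in CKO in 5 of 5 pairs (0.08 to 0.73). The share of all genes with 1 direction in 5 of 5 pairs was not computed, so these counts have no background. Members that vary together also do not give independent counts. With the number as a block in the edgeR fit, the log2 difference at 0 h was -0.25 for Irgm1 (adjusted p 0.507), -0.20 for Gbp2 (0.742) and 0.13 for Gbp11 (0.753), so that Gbp11 moved by more than 1.5 times and none was called.

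**Figure D3:**
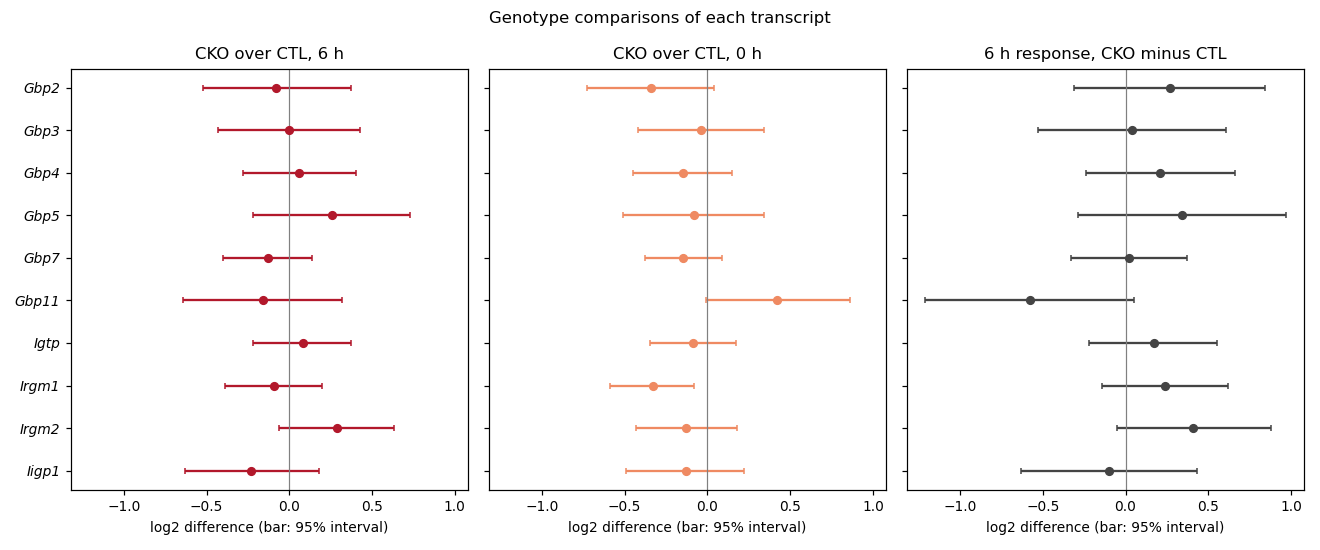
Log2 difference of each transcript, CKO over CTL at 6 h (left) and at 0 h (middle), and the difference between the 6 h responses, CKO minus CTL (right), with 95% intervals from edgeR. The interval of Irgm1 at 0 h (-0.59 to -0.08) is the only one of the 30 shown that does not reach 0, before adjustment over all genes.

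The responses to the beads also could not be told apart between genotypes. The difference of the 6 h responses, CKO minus CTL, lay between -0.58 ± 0.30 (Gbp11) and 0.41 ± 0.22 (Irgm2), and 8 of the 10 were above 0. None was called by edgeR's interaction test, with adjusted p-values of 0.465 to 0.96, and 0.0% of all 28082 genes were called; 2725 of all genes and 0 members had an unadjusted p under 0.05, and DESeq2 called 4 genes, none of them a member. The intervals of these differences reached from 0.431-fold (Gbp11) to 1.96-fold (Gbp5). CTL library 4.24 at 6 h bore on these values: without it the difference of Irgm2 was 0.21, of Gbp4 -0.00 and of Gbp11 -0.71, the range over the members was -0.71 to 0.27, 5 of the 10 were above 0, and 0 of 10 were called.

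Library 4.24 of CTL at 6 h stood apart in depth, in its TMM factor and in the scaled levels of these genes. It held 26427467 counts in all. The 3 CKO libraries at 6 h held 65314747 to 76775918 and the other 4 CTL libraries 62402807 to 69372546, beside 68795932 to 85608113 in CKO and 70991619 to 79298656 in CTL at 0 h. The TMM factor of CTL library 4.24 at 6 h, by which its CPM are divided, was 1.368, against 1.03 to 1.096 in the other 4. In these scaled values all 10 members lay under the mean of their group there. Their mean log2 deviation was -0.49, with the lowest, -1.03, in Gbp5. The part of the TMM factor in these values was not tested. With that library left out, 10 of 10 members were still called higher in CTL, with log2 rises of 1.79 to 4.81 and a median of 2.60. RNA integrity numbers ran from 5.0 to 8.7 over the study's samples and are not given per library, so their part was not tested. The sex label disagreed with Xist and Ddx3y, which mark female and male cells, in CKO libraries 4.24 and 5.6 at 0 h.

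The 10 transcripts also varied within their groups. After the mean of each group was subtracted, all 45 pairs of members correlated positively over the 20 libraries, with a median r of 0.59 and a range of 0.05 (Gbp2 with Gbp11) to 0.92 (Gbp5 with Iigp1). Positive values were common among other genes too: over 10553 genes with a mean log2 CPM of at least 2, the median r of a gene with the members had a median of 0.31 and was above 0 in 77.6%, and it reached 0.59 in 5.41%. Without CTL library 4.24, left out after its values were seen, 40 of the 45 pairs were above 0, with a median of 0.54 and a range of -0.25 to 0.90, and the median over the other genes was 0.09. The 10 pairs on a shared chromosome had a median of 0.66 (0.43 to 0.88), and the 35 pairs on different chromosomes one of 0.59 (0.05 to 0.92). The libraries share their depth scaling and their cell sorts, and these values are a description. At 6 h, CTL libraries 4.29 and 10.28 lay above the group mean in 10 of 10 members, by 0.30 and 0.16 on average. That mean includes CTL library 4.24, which lay under it in each member, and deviations from a mean without that library are not given. At 0 h, CKO library 4.24 lay below it in 9 of 10 (mean deviation -0.30), and CTL library 5.13 above it in 8 of 10 (mean deviation 0.25). Gbp11 was in 3 of the 4 lowest pairs, and Igtp was among the closest with Irgm1 (r = 0.88) and with Gbp2 (r = 0.84).

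**Figure D4:**
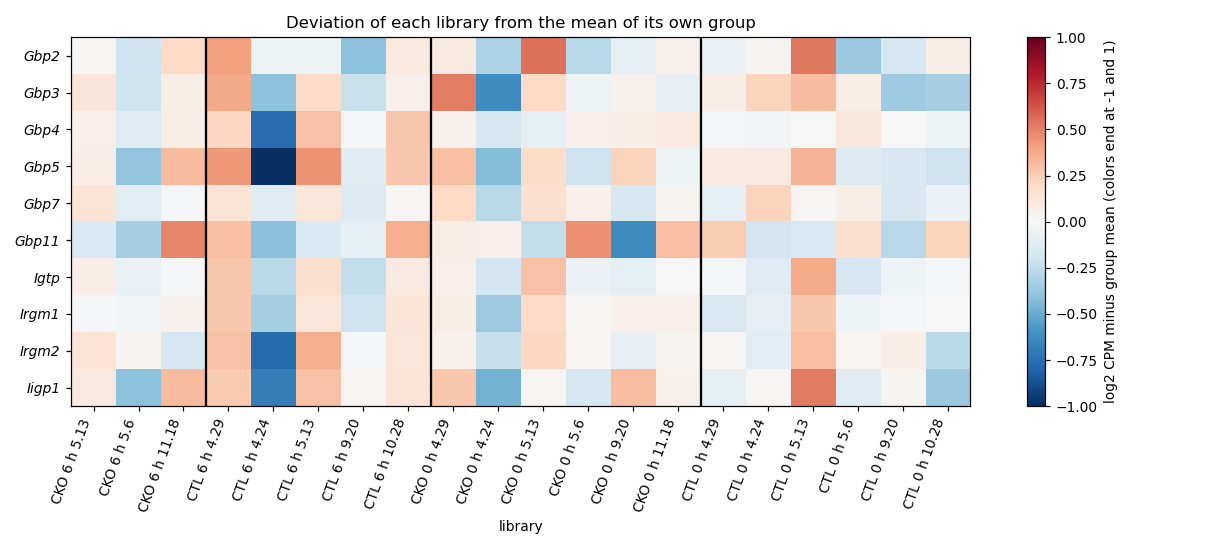
Log2 CPM of each transcript minus the mean of its own group (color scale), for each library (columns, grouped as CKO 6 h, CTL 6 h, CKO 0 h and CTL 0 h, with the number of each library). The CTL 6 h column 4.24 is blue in all 10 rows, down to -1.03 for Gbp5, and the CTL 6 h columns 4.29 and 10.28 are red or pale red in all 10.

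Of 5 genes of interferon-γ, its receptor and its kinases, 4 rose and 0 fell in CKO, and 3 rose and 1 fell in CTL. Interferon-γ itself had 10.8, 11.4 and 55.9 CPM of Ifng in the 3 CKO libraries at 6 h and 22.1, 28.7, 37.4, 40.6 and 43.8 CPM in the 5 CTL libraries at 6 h, against medians of 7.00 CPM (3.36 to 12.2) in CKO and 7.10 CPM (5.80 to 12.3) in CTL at 0 h. The CKO libraries at 6 h were widely spread: 2 of the 3 overlapped the 0 h range, and library 11.18 exceeded every CTL library. Ifng was called higher at 6 h in CKO (log2 1.76 ± 0.44, adjusted p 0.00526) and in CTL (2.10 ± 0.39, adjusted p 0.000167). The receptor chain Ifngr1 averaged 528 ± 98.1 CPM in CKO and 579.5 ± 123 CPM in CTL at 6 h, against 115 ± 13.0 CPM in CKO and 121 ± 10.9 CPM in CTL at 0 h, and rose by 2.25 ± 0.15 in CKO and 2.24 ± 0.13 in CTL. Ifngr2 rose in CKO (0.52 ± 0.15, adjusted p 0.0123) and had 0.17 ± 0.13 in CTL, which did not pass (adjusted p 0.248).

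Of the 2 kinases, Jak2 rose by 1.30 ± 0.22 in CKO and 1.10 ± 0.19 in CTL. Jak1 fell by 0.65 in CTL (adjusted p 0.0017) and had -0.10 ± 0.19 in CKO; without CTL library 4.24 its fall in CTL was -0.45 with the same adjusted p, 0.0017. The transcription factor Irf1 rose by 1.37 ± 0.12 in CKO and 1.17 ± 0.11 in CTL (edgeR). None of these 6 genes was called between CKO and CTL at either time.

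Across libraries of 1 time, the level of Ifng had no relation to that of the GTPases that passed the test. Of 20 relations (10 members at each time, log2 CPM), the smallest adjusted p was 0.376. At 6 h the strongest was Gbp11, with a Pearson r of 0.73 and a Spearman rho of 0.74 over 8 libraries (exact permutation p of 0.0477 for r, adjusted p 0.376), and r was 0.50 without the 2 libraries farthest from the median of Ifng. At 0 h Irgm1 had r = 0.55, Gbp5 r = 0.54 and Iigp1 r = 0.53 over 12 libraries, each with an adjusted p of 0.376 by a permutation test. Without the 2 farthest libraries, r was 0.07 for Irgm1, 0.69 for Gbp5 and 0.82 for Iigp1. As deviations from the genotype means, r at 0 h was 0.61 for Irgm1, 0.60 for Gbp5 and 0.57 for Iigp1. Without the 2 libraries farthest on that scale, it was 0.34 for Irgm1, 0.22 for Gbp5 and 0.26 for Iigp1. The values of all these genes thus depend on the scale and on the libraries kept. The members' common level, the mean of their standardised values, was also compared with other genes. Over deviations from the group means, the closest of 10553 candidates were Gm12250 (r = 0.914), Tgtp2 (0.896), Tgtp1 (0.894), Apobec2 (0.888) and Gm12185 (0.881), of which all but Apobec2 belong to the immunity-related GTPases, followed by Dtx3l, Irak4, Parp9, Tor3a and Bloc1s6. Irf1 ranked 66th (r = 0.781), while Ifng ranked 6552nd (0.258). Over all candidates this r had a median of 0.39 and was above 0 in 78.1%. Without CTL library 4.24 at 6 h the median was 0.11. The closest genes were picked as the highest of 10553 values, so their lead over Ifng is a description and not a test. Over the 20 libraries as they stand, where the difference between times dominates, Gm12250 (0.992), Samhd1, Gbp6, Cd274, Crem, Tgtp1, P2ry10, Gm12185, Fosl2 and Ifngr1 (0.986) were closest.

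The counts for the gene lists that follow stand beside the shares of all genes, 19.6% higher and 13.1% lower in CKO and 41.6% higher and 21.7% lower in CTL. Of 19 other genes of the 2 families, 13 were called higher and 0 lower at 6 h in CKO, and 11 higher and 3 lower in CTL. Gbp6 rose by 1.92 ± 0.14 in CKO and 1.88 ± 0.13 in CTL. Gm12250, named Irgb10 in RefSeq and an effector that attacks bacterial membranes in mouse macrophages, rose by 2.74 ± 0.21 in CKO and 2.60 ± 0.19 in CTL, and GENCODE gives it as a processed pseudogene. Gm12185 rose by 2.61 ± 0.18 in CKO and 2.07 ± 0.16 in CTL. Tgtp1 rose by 2.80 ± 0.20 in CKO and by 2.23 in CTL. Ifi47 rose by 1.72 ± 0.12 in CTL, and in CKO it averaged 570 CPM at 6 h against 185 CPM at 0 h. The 3 that fell in CTL were 9930111J21Rik2 (-1.14), 9930111J21Rik1 (-1.05) and Irgc1 (-0.80), named after their values were seen. The median log2 change of the 19 was 1.45 in CKO and 0.97 in CTL, under the 2.61 in CKO and 2.50 in CTL of the 10, and that difference was not tested.

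Other targets of interferon-γ rose in part. Of 24 such genes, the test called 12 upward and 2 downward in CKO, and 15 upward and 3 downward in CTL. Cd274, the checkpoint ligand PD-L1, rose by 2.44 ± 0.15 in CKO and 2.47 ± 0.14 in CTL, the dNTP hydrolase Samhd1 by 2.02 ± 0.13 in CKO and 2.00 ± 0.12 in CTL, the tryptophanyl-tRNA synthetase Wars by 1.81 ± 0.16 in CKO and 1.93 ± 0.14 in CTL, and the chemokine Cxcl10 by 3.01 ± 0.41 in CKO and 3.90 ± 0.39 in CTL. The median of the 24 was 0.39 in either genotype, and class I genes such as H2-K1 (-0.07 in CKO, -0.20 in CTL) were not called. The type I interferon antiviral genes went mainly the other way: of 18, 1 was called higher and 8 lower in CKO, and 3 higher and 10 lower in CTL. The GTPase Mx1, a dynamin relative that blocks viruses, fell by 3.27 in CKO and by 3.45 in CTL, Mx2 fell by 2.52 in CKO and by 2.64 in CTL, and Dhx58 fell by 1.03 in CKO and by 0.91 in CTL, while Oasl2 rose by 1.32 ± 0.21 in CKO and 1.68 ± 0.18 in CTL.

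**Figure D5:**
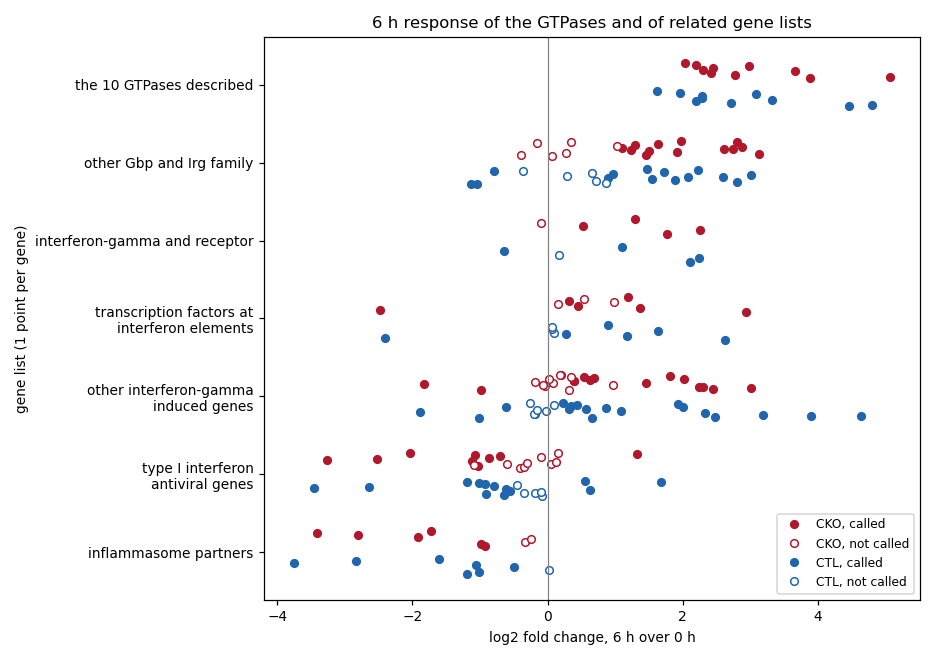
Log2 fold change, 6 h over 0 h, of each gene (1 point) in 7 gene lists, with CKO (red) above CTL (blue) in each row; filled points were called by edgeR and open points were not. The 10 GTPases lie at 1.62 and above in both genotypes, the other lists spread to both sides of 0, and the inflammasome partners lie at or below 0.02.

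Of 9 transcription factors that act at interferon response elements, 5 were called higher and 1 lower in each genotype. Besides Irf1, Stat2 rose by 1.19 ± 0.17 in CKO and 0.90 ± 0.14 in CTL, and Batf2 by 2.94 ± 0.53 in CKO and 2.62 ± 0.49 in CTL, while Ciita, the master regulator of class II genes, fell by 2.48 in CKO and by 2.40 in CTL. Of 8 negative regulators, 2 rose and 1 fell in CKO, and 2 rose and 5 fell in CTL. The feedback inhibitors Socs1 (1.47 ± 0.21 in CKO, 2.17 ± 0.19 in CTL) and Cish (1.90 ± 0.22 in CKO, 2.25 ± 0.20 in CTL) rose, and the phosphatase Ptpn6 fell by 1.66 in CKO and by 1.70 in CTL. Among 9 drivers of interferon-γ production, 2 rose and 0 fell in CKO and 1 rose and 3 fell in CTL, with the interleukin-12 receptor chain Il12rb2 at 2.57 ± 0.30 in CKO and 2.51 ± 0.28 in CTL.

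The partners through which these GTPases act did not rise with them as groups. Of 8 inflammasome partners, 0 rose and 6 fell in CKO, and 0 rose and 7 fell in CTL. Myeloid cells also express several of them, and myeloid and dendritic markers fell over the same time, with 9 of 12 called lower in CKO and 8 of 12 in CTL and medians of -2.54 in CKO and -2.39 in CTL. The part of such cells in the fall was not tested. The adaptor Pycard fell by 1.72 in CKO and by 1.60 in CTL, and the DNA sensor Aim2 fell by 0.93 in CKO and by 1.19 in CTL. Of 10 autophagy proteins that place the GTPases on membranes, 2 rose and 1 fell in each genotype: Map1lc3a rose by 1.54 ± 0.18 in CKO and 1.41 ± 0.15 in CTL, Gabarapl1 by 0.81 ± 0.23 in CKO and 1.05 ± 0.20 in CTL, and Atg3 fell by 0.34 in CKO and by 0.30 in CTL. Of 8 enzymes that attach lipid anchors, 0 rose and 1 fell in CKO and 1 rose and 1 fell in CTL, and the farnesyltransferase subunit Fntb fell by 0.72 in CKO and by 0.94 in CTL. Of 10 dynamin and atlastin relatives, 3 rose and 0 fell in CKO and 4 rose and 2 fell in CTL, which in CTL is near the shares of all genes. Across all of these lists 0 genes were called between CKO and CTL at 6 h or at 0 h.

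Markers of other cells were present in the sorted RNA, and most of those of myeloid, B, CD8 and NK cells fell with time. Among 12 myeloid and dendritic markers, 1 rose and 9 fell in CKO and 1 rose and 8 fell in CTL, and their summed level was 26.7 to 52.4 CPM in CKO and 20.3 to 56.5 CPM in CTL at 6 h, against 135 to 362 CPM in CKO and 90.6 to 268 CPM in CTL at 0 h. Of 9 B cell markers, 0 rose and 6 fell in CKO and 0 rose and 9 fell in CTL (149 to 383 CPM in CKO and 130.5 to 179 CPM in CTL at 6 h, 544 to 1087 CPM in CKO and 559 to 1002 CPM in CTL at 0 h). Of 9 CD8 and NK markers, 7 fell in CKO and 6 in CTL (37.7 to 58.4 CPM in CKO and 30.5 to 74.2 CPM in CTL at 6 h, 105 to 158 CPM in CKO and 101 to 274 CPM in CTL at 0 h). The 8 T cell markers, with 2482 to 2854 CPM in CKO and 2142 to 2794 CPM in CTL at 6 h and 5208 to 6510 CPM in CKO and 4625 to 6183 CPM in CTL at 0 h, all fell in both genotypes. Of 6 stromal and endothelial markers, 1 rose and 1 fell in CKO and 3 rose and 1 fell in CTL, with sums of 254 to 356 CPM in CKO and 182 to 245 CPM in CTL at 6 h and of 257 to 339.9 CPM in CKO and 232 to 278 CPM in CTL at 0 h. Of 4 erythroid markers tested 2 fell in CKO and 1 in CTL, with sums of 3.14 CPM or less in every library. The GTPases rose while the markers of myeloid and B cells, which also express them, fell, and the part of these cells in the values was not tested. No marker in the 6 lists was called between CKO and CTL at 6 h or 0 h by edgeR over all 20 libraries. Without CTL library 4.24 at 6 h, 1 stromal and endothelial marker was called at each time, upward in CKO.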

How the data were processed

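Counts per Ensembl gene of the 20 libraries were used as the authors deposited them, as whole numbers that had not been normalized. Trimmomatic 0.36, STAR 2.5.2b, featureCounts, Subread 1.5.2 and GRCm38 appear in the submitters' processing notes. No source used here gives the annotation release, the strand setting or the handling of reads with several alignments. Identifiers were matched to GENCODE M21 (49056 of 49315). Counts were tested with edgeR 4.0.16 (R 4.3.3): filterByExpr (minimum count 10, minimum total 15) kept 28082 genes, libraries were scaled by TMM, and 1 robust quasi-likelihood model held the 4 groups and the labelled sex over all 20 libraries. A gene is called at an adjusted p under 0.05 (Benjamini-Hochberg over all genes, two-sided). Log2 CPM used a prior count of 0.5. Intervals cover the spread between libraries.

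The members and gene lists were chosen with earlier results of these data known, as was the rule for naming genes: all members, and from each list up to 4 called genes with the smallest adjusted p. Whether title numbers pair libraries was checked on residuals from group means over genes. Same-numbered libraries correlated at 0.30 to 0.58 between CKO and CTL at 0 h (5 pairs). Between 6 h and 0 h they correlated at 0.19 to 0.48 in CKO (3 pairs) and at 0.33 to 0.49 in CTL (5 pairs). Libraries with different numbers were not compared in this way, so these values alone do not show pairing. The numbers were taken as pairing for values given by pair and for the replicate block. The main fit had no pairing term and treated all libraries as independent. At 6 h CKO and CTL share 1 number. No 2 libraries of a group were copies (chi-square per degree of freedom 18.7 or more over 43 pairs). Alternatives were RLE factors, other filters, no sex term, Ddx3y level for sex, a replicate block, only the groups compared, DESeq2 1.42.0 and leaving out each library. A gene of the pathway is not reported here.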

Additional observations from a re-analysis of the deposited data

Results flagged for a closer look

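In 3 of the 4 groups (6, 6 and 5 libraries) the library farthest from the others was tested by Dixon's ratio, its gap to the nearest library over the whole range of the group, for the 10 GTPases, Ifng and Irf1. Chance passes this limit in about 1 of 20 groups, and 6 of 36 passed it here, though genes that vary together over the same libraries do not give independent passes. CTL library 4.24 at 6 h, the library of low depth, stood apart at the low end for Gbp4 (ratio 0.714) and Iigp1 (0.716), with 5 libraries. CTL library 5.13 at 0 h stood apart at the high end for Igtp (0.699) and Irgm1 (0.636), with 6 libraries. Irgm1 was far below the other CKO libraries in library 4.24 at 0 h (0.676), whose sex label disagreed with Xist, and Gbp4 was far above the other CTL libraries in library 5.6 at 0 h (0.681). No difference between the 2 genotypes' responses was called for any member.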

How the results depend on the processing

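The count of members called, 10 of 10 higher at 6 h in each genotype and 0 of 10 in the genotype comparisons and in the difference of the responses, was the same under all alternatives run, with a range of 10 to 10 and of 0 to 0 when each of the 20 libraries was left out. Over the alternatives other than leaving out a library, the members' log2 rises lay between 1.87 and 5.19 in CKO and between 1.59 and 5.05 in CTL. With the number as a replicate block, the pairing of libraries changed no call: 10 and 10 members were called over time, and 0 in the other comparisons.

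Log2 values near 0 changed sign without being called. At 0 h, CKO over CTL, Gbp3 was 0.05, Gbp5 0.11 and Iigp1 0.07 with no sex term, 0.01, 0.05 and 0.02 with the Ddx3y level, and 0.17, 0.02 and 0.01 with that level and the block. Gbp3 and Gbp5 were 0.14 and 0.06 with the block alone, and 0.03 and 0.02 with only the groups compared. At 6 h, Gbp4 and Igtp were -0.02 and -0.03 with a mean CPM of at least 1, and Gbp4 was -0.03 with the block and the Ddx3y level. The difference of the responses of Gbp3 was -0.07 with a mean CPM of at least 1, -0.04 with no sex term, -0.19 with the block and -0.14 with block and Ddx3y level. For Gbp7 it was -0.11, -0.10 and -0.09 with a mean CPM of at least 1, with the block, and with block and Ddx3y level. Leaving out 1 library moved Gbp3 between -0.18 and 0.06 and Igtp between -0.15 and 0.01 at 0 h. At 6 h it moved Gbp2 between -0.19 and 0.03, Gbp4 between -0.08 and 0.17 and Gbp11 between -0.43 and 0.03. For the difference of responses the ranges were -0.08 to 0.23 for Gbp3, -0.06 to 0.13 for Gbp7 and -0.25 to 0.08 for Iigp1. The cause of these changes was not tested. As deviations from genotype means, Ifng at 6 h gave r of 0.14 with Gbp5 and -0.14 with Gbp7, in place of -0.04 and 0.12.

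Over all genes the genotype calls moved more: at 0 h 119 became 198 (no sex term), 232 (Ddx3y level), 290 (block), 434 (block with Ddx3y level), 200.0 (only the groups compared) and 426 (DESeq2), and 49 to 283 on leaving out 1 library. At 6 h 82 became 126 (mean CPM of at least 1), 52 (block), 8 (only the groups compared) and 421 (DESeq2), and 16 to 212 on leaving out 1 library. With a mean CPM of at least 1, which tests 14146 genes, 4836 genes were called over time in CKO, 2328 higher and 2508 lower, and 7417 in CTL, 3926 higher and 3491 lower. On leaving out 1 library, all-gene calls over time in CKO lay between 4848 (without CKO library 11.18 at 6 h) and 12042 (without CTL library 4.24 at 6 h). With 3 CKO libraries at 6 h the precision of the genotype differences is limited, as their intervals show.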

Other observations

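The level of Ifng and that of the GTPases went together in some libraries and apart in others, chosen after their values were seen. At 0 h, CKO library 4.29, with 12.2 CPM of Ifng the highest of its group, had 10 of 10 members above the group mean (0.16 on the log2 scale on average), and CKO library 4.24, with 3.36 CPM the lowest, had 9 of 10 below it (-0.30). CKO libraries 5.13 and 5.6 at 6 h held 11.4 and 10.8 CPM of Ifng, within the 0 h range, and 2346 and 2007 CPM of Gbp2. At 0 h the libraries with the most Ifng were CKO 4.29 (12.2 CPM) and CTL 10.28 (12.3 CPM), and these held 75.2 and 88.8 CPM of Gbp2. CKO library 11.18 at 6 h, with 55.9 CPM of Ifng, had 2667 CPM of Gbp2 and 214 CPM of Gbp11, the highest of the 3 CKO libraries in both, and 396 CPM of Irgm2, the lowest of the 3. Ifng is read here at a single time after activation, as RNA and not as secreted protein.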
